A study of Mus musculus with 3 samples.

Results

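The 10 genes described here carry iron into the macrophage, store it, release it and sense it: Slc11a1, Slc11a2, Slc40a1, Fth1, Ftl1, Tfrc, Cp, Hamp, Ireb2 and Ncoa4. They were chosen by symbol for their function, with earlier results of these data known. All 10 were found among the 55536 genes of the deposited tables, of which 22028 are protein-coding. RNA had been purified from the chromatin of bone-marrow-derived macrophages of C57BL/6J mice, primary cells grown from marrow precursors, and sequenced after removal of ribosomal RNA. Every culture had been treated with Lipid A, the part of bacterial lipopolysaccharide that TLR4 recognises, at 100 ng/ml for 12 h, was then kept without it for 12 h, and was given 100 ng/ml again for 10 min. The 3 libraries are biological replicates of this 1 condition, and they share a donor identifier. No untreated group was analysed here, so no value below is a response to Lipid A, and each comparison is between genes within a library or between replicates.

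Iron bound to transferrin enters a cell through the transferrin receptor (Tfrc) and leaves the endosome through the divalent metal transporter Slc11a2, while the related transporter Slc11a1 (Nramp1) moves metal ions out of the phagosome of macrophages. Iron in excess is stored in ferritin, a shell of heavy (Fth1) and light (Ftl1) chains, and Ncoa4 is the receptor that delivers ferritin to the lysosome for its release. Ferroportin (Slc40a1) is the only known iron exporter of mammalian cells, ceruloplasmin (Cp) oxidises the iron that leaves, and the peptide hormone hepcidin (Hamp) makes ferroportin be degraded. In iron-poor cells the iron regulatory proteins, one of them encoded by Ireb2, bind a hairpin in messenger RNA, the iron-responsive element. Bound in a 5′ UTR it blocks translation, and bound in a 3′ UTR it protects the messenger from decay. Macrophages that clear old red cells recycle most of the body's iron, and in infection they are known to withhold it from microbes. C57BL/6 mice are known to carry a loss-of-function allele of Slc11a1, which limits these cells as a model of that transporter.

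The iron-responsive elements of the member transcripts are printed because they are what joins storage, import and export genes in one regulatory circuit. GENCODE M21 transcripts (mm10) were searched on the transcript strand, since the element is an RNA hairpin, for an unpaired C, 5 bases, the loop CAGTGN and 5 further bases, in which the 5 bases on either side of the loop pair with each other, G with T allowed. Of the 10 members, 4 held the full pattern at 7 sites. Elements with another loop or a less paired stem were outside this search, so the sites printed need not be all of a gene's elements. Capitals mark the unpaired C and the CAGTGN loop, and each sequence is 27 bases, 5′ to 3′.
Fth1 5′ UTR, chr19:9982733-9982759, plus strand: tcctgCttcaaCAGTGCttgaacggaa
Ftl1 5′ UTR, chr7:45459780-45459806, minus strand: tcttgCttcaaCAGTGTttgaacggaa
Slc40a1 5′ UTR, chr1:45925466-45925492, minus strand: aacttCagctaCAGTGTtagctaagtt
Tfrc 3′ UTR, chr16:32631220-32631246, plus strand: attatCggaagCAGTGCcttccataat
Tfrc 3′ UTR, chr16:32631599-32631625, plus strand: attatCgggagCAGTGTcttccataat
Tfrc 3′ UTR, chr16:32631664-32631690, plus strand: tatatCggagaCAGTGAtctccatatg
Tfrc 3′ UTR, chr16:32631711-32631737, plus strand: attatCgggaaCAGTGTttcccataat
Slc11a2 3′ UTR with 1 unpaired stem position, chr15:100395154-100395180, minus strand: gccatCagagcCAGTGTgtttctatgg

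The elements of the ferritin chains differ from each other at 2 of 27 bases, and each differs from that of Slc40a1 at 14. The 4 Tfrc elements found lie within one 3′ UTR. The first and second of them differ at 2 bases and the second and last at 3, while the third, the only Tfrc element with an A as the last loop base, differs from the others at 9 or 10 bases. The full pattern was present in transcripts of 369 of 21951 protein-coding genes (1.68%) and in an annotated UTR of 175 (0.797%). With 1 unpaired stem position allowed it was present in 2844 (13%), so the Slc11a2 match, which lies in the messenger form known for its element, is at a common level of likeness, as is a match with 1 unpaired position in the coding sequence of Slc11a1. The loop letters CAGTG alone occurred in 94.9% of genes. No match with at most 1 unpaired position was found in transcripts of Cp, Hamp, Ireb2 or Ncoa4, which says only that these letters are not in those annotated transcripts.

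Rounded expected counts on genes ranged from 13538605 to 19949204 per library. A gene with no counts could, by counting error alone, hold up to 0.222, 0.150 or 0.165 CPM (counts over library size) in replicates 1, 2 and 3, the share that 3 counts make. Levels are given as TPM, the deposited abundance per transcript length. TPM has the same sum over everything in each table, and protein-coding genes took 27.3% to 30.9% of it here. All 8 macrophage markers examined were detected, meaning at 1 TPM or more in every library, with summed levels of 789, 849 and 619 TPM in replicates 1, 2 and 3. Of 8 hepatocyte markers none was detected and 7, albumin among them, had no counts, with summed levels of 0, 0 and 0.06 TPM. Neutrophil markers summed to 0.58 to 0.72 TPM over 8 genes. Of 8 erythroid markers Alas2 alone was detected, at 12.2 ± 2.70 TPM (SD, n = 3), and Hbb-bs and Hbb-bt had no counts. In bulk RNA, fewer cells of a type cannot be told apart from less RNA per cell. The libraries were made from 1 µg (replicate 1), 250 ng (replicate 2) and 500 ng (replicate 3) of RNA, so input and replicate cannot be told apart.

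Of the 10 iron genes, 9 were detected, Hamp being the exception, against 45.6% of all protein-coding genes. The median member level was 6.19 ± 0.04 on the log2(TPM + 0.1) scale (SD, n = 3), beside -0.43 ± 0.13 over all protein-coding genes and 3.60 ± 0.11 over the detected ones.

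**Figure D1:**
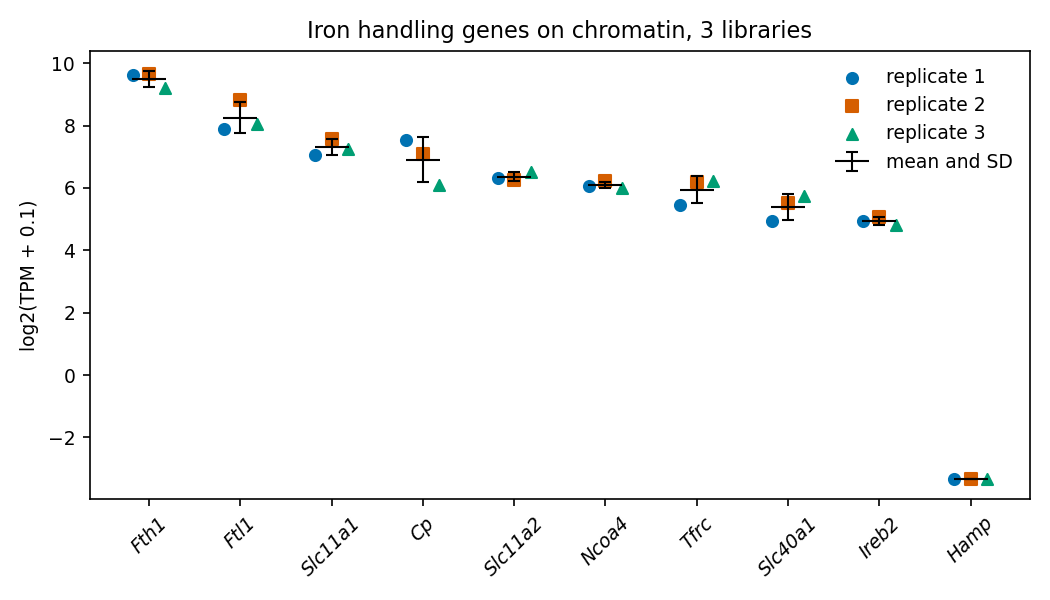
Level of each of the 10 iron genes on a log2(TPM + 0.1) axis, with a marker per replicate and a bar for the mean and SD of 3 libraries. Fth1 and Ftl1 stand at the top in every library, Cp has the widest spread of the detected genes, and Hamp lies at the bottom at 0 TPM.

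The ferritin chains were the most abundant of the iron genes. Fth1, the heavy chain with the ferroxidase centre (ENSMUSG00000024661.7, mm10 chr19:9980598-9985098, plus strand), stood at 780, 814 and 589 TPM in replicates 1, 2 and 3, from 9852, 12882 and 9337 expected counts. Its mean of 728 ± 121 TPM (SD, n = 3) ranked 18 among the 22028 protein-coding genes. Ftl1, the light chain that favours the mineral core (ENSMUSG00000050708.16, chr7:45457944-45459884, minus strand), stood at 237, 449 and 264 TPM, from 1995, 4675 and 2564 expected counts, and ranked 78 with a mean of 317 ± 116 TPM. In TPM, replicate 2 held the highest level of both chains. At these TPM the chains did not overlap, since the lowest Fth1 value was above the highest Ftl1 value.

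The heavy chain exceeded the light chain by 1.72, 0.86 and 1.16 on the log2(TPM + 0.1) scale in replicates 1, 2 and 3, a mean of 1.24 ± 0.44 (SD, n = 3) or 2.37-fold. The mean was 0.60 ± 0.40 in the second set of deposited tables, estimated straight from the reads and called read-based here, and 1.88 ± 0.42 in CPM, which leaves length out. The difference was positive in 3 of 3 libraries, for which the exact two-sided sign-flip test gives p = 0.25, the smallest that 3 libraries allow. Ferritin genes have processed pseudogene copies that can share reads with them, so part of either level is uncertain. Copies were sought by symbol, so any under other names were not counted. Those found were assigned little. Fth-ps2, a processed pseudogene, stood at 7.63, 8.04 and 3.56 TPM. Ftl1-ps1, annotated as protein-coding, stood at 2.82, 10.90 and 7.18 TPM. Fth-ps3 had 2, 0 and 1 counts. Ftl1-ps2, Ftl2-ps and the Fthl17 genes, the last not processed pseudogenes, had none. These values come from the same assignment of reads, so they do not measure how much was shared. Gm10252, annotated on the opposite strand over 355 exonic bases of Ftl1 (26.5% of its exons), stood at 10.27, 11.13 and 7.94 TPM. The handling of strand is not given in the sources used here, so reads of overlapping genes on opposite strands may be mixed.

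Ncoa4, the ferritin receptor of autophagy (ENSMUSG00000056234.15, chr14:32159865-32179855, plus strand), was among the steadiest members. It stood at 66.2, 74.0 and 64.4 TPM, with a mean of 68.2 ± 5.12 (SD, n = 3), which is rank 896 of the protein-coding genes. In CPM scaled by TMM, which sets libraries on a common scale by the bulk of their genes, its highest library exceeded its lowest 1.05-fold.

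Genes for import and for transport out of vesicles were all detected. Slc11a1, the phagosomal transporter (ENSMUSG00000026177.11, chr1:74375195-74386062, plus strand), stood at 134, 192 and 154 TPM in replicates 1, 2 and 3, with a mean of 159.7 ± 29.4 (SD, n = 3) and rank 249. Slc11a2, the endosomal transporter (ENSMUSG00000023030.16, chr15:100387898-100425072, minus strand), stood at 80.6, 76.0 and 91.1 TPM, with a mean of 82.6 ± 7.73 and rank 674. At these TPM every library of Slc11a1 was above every library of Slc11a2. In the read-based tables their ranges overlapped (163 to 203 TPM against 121 to 164 TPM). Coding transcripts held 15.4% ± 2.15 of the TPM of Slc11a1 and 80.5% ± 0.600 of that of Slc11a2 (SD, n = 3). In coding transcripts Slc11a2 was thus the higher gene in every library.

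Within libraries Slc11a1 exceeded Slc11a2 by 0.73, 1.33 and 0.75 on the log2(TPM + 0.1) scale, a mean of 0.94 ± 0.34 (SD, n = 3) or 1.92-fold, positive in 3 of 3 libraries (exact two-sided sign-flip p = 0.25, the smallest possible). This order of the gene totals holds per transcript length. The mean was 0.41 ± 0.30 in the read-based tables. In CPM the difference was -0.52, Slc11a2 having the larger expected counts (2300, 3121 and 3223, against 1553, 2640 and 1900 for Slc11a1). Gm5475 overlaps Slc11a2 on the opposite strand over 402 exonic bases (6.33% of its exons) and stood at 3.02 to 3.42 TPM.

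Tfrc, the receptor for transferrin iron (ENSMUSG00000022797.16, chr16:32608920-32632794, plus strand), stood at 43.5, 72.5 and 74.1 TPM, with a mean of 63.4 ± 17.2 (SD, n = 3) and rank 1000. Replicate 1 was the low library and the other two lay close together. In expected counts it held 1052, 2411 and 2258.

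The export side was uneven: the exporter and a ferroxidase were present, and hepcidin was not detected. Slc40a1, ferroportin (ENSMUSG00000025993.10, chr1:45908068-45926523, minus strand), stood at 30.4, 45.8 and 53.1 TPM in replicates 1, 2 and 3, with a mean of 43.1 ± 11.6 (SD, n = 3) and rank 1628. As for Tfrc, replicate 1 was the low library. Tfrc exceeded Slc40a1 by 0.51, 0.66 and 0.48 on the log2(TPM + 0.1) scale, a mean of 0.55 ± 0.10 or 1.47-fold, positive in 3 of 3 libraries (exact two-sided sign-flip p = 0.25, the smallest possible). In CPM, with no scaling by length, this difference was -0.25.

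Cp, the copper ferroxidase (ENSMUSG00000003617.16, chr3:19957054-20009145, plus strand), stood at 184, 136 and 68.7 TPM, with a mean of 129.6 ± 57.9 (SD, n = 3) and rank 356. Replicate 1 was the high library and replicate 3 the low one, the reverse of Slc40a1. Cp is best known as a product of hepatocytes, whose defining markers were at or near 0 in the gene tables. The hepatocyte marker Cyp2e1 averaged 2.72 TPM in the read-based tables, where albumin was at 0. The annotated span of Cp overlaps that of Hps3, a gene on the opposite strand, over 13201 bases. Only 108 exonic bases are shared (1.13% of the exons of Cp). Hps3 stood at 87.6, 86.6 and 73.8 TPM. The 12 of 16 Cp transcripts with no base inside the Hps3 span summed to 158.6, 116 and 51.8 TPM, so the spread between libraries was present outside the overlap too.

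Hamp, the gene of hepcidin (ENSMUSG00000050440.8, chr7:30942368-30944032, minus strand), had no expected counts in any library, which by counting error allows up to 0.222, 0.150 and 0.165 CPM. The read-based tables held 2 estimated counts for it in replicate 2 (0.318 TPM) and none in the others. Its copy Hamp2 had no expected counts, and 0.150 to 0.685 TPM in the read-based tables, so reads of either gene were few in both.

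Ireb2, the iron regulatory protein IRP2 (ENSMUSG00000032293.8, chr9:54863789-54912530, plus strand), stood at 30.8, 33.4 and 27.8 TPM, with a mean of 30.7 ± 2.77 (SD, n = 3) and rank 2356, the lowest of the detected members. It was also the steadiest: in TMM-scaled CPM its 3 libraries were at 129, 129 and 126. Aco1, whose protein is the other iron regulatory protein when it has lost its iron-sulfur cluster, stood at 13.7, 14.4 and 13.9 TPM.

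By mean TPM the order was Fth1, Ftl1, Slc11a1, Cp, Slc11a2, Ncoa4, Tfrc, Slc40a1, Ireb2 and Hamp. Neighbours were taken as apart where all 3 libraries gave the same order and the ranges did not overlap. In the gene tables this was so for Fth1 over Ftl1, Ftl1 over Slc11a1, Slc11a2 over Ncoa4, and Ireb2 over Hamp. In the read-based tables the ranges of Slc11a2 (121 to 164 TPM) and Ncoa4 (107 to 142 TPM) overlapped. So did those of Fth1 (408 to 655 TPM) and Ftl1 (282 to 424 TPM). The order also rests on scaling by length: by mean expected counts Slc11a1, at 2031, was above only Tfrc, at 1907, of the detected members. On that measure Ftl1, at 3078, was below Cp, at 3306. Slc11a1 over Cp, Cp over Slc11a2, Ncoa4 over Tfrc and Slc40a1 over Ireb2 each held in 2 of 3 libraries, so these neighbours did not differ beyond their spread. Tfrc over Slc40a1 held within each of 3 libraries, by the difference given above, although their ranges over libraries overlapped.

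Whether each gene varied between replicates beyond the trend of genes at its level was asked with an edgeR goodness-of-fit test over 14789 genes. It tests 1 mean for all libraries, with trended dispersion. That dispersion was estimated from the same 3 libraries, so spread common to most genes is already in it. None of the 9 members tested was called at an adjusted p below 0.05 (Benjamini-Hochberg), against 1.12% of all genes tested (166 genes). DESeq2 marked 61 genes as dispersion outliers, and none was a member. At an unadjusted p below 0.05 there were 4 members, Cp, Tfrc, Ftl1 and Slc40a1, beside 6.08% of all genes tested. Cp lay closest to the threshold, with an adjusted p of 0.0659 in edgeR and rank 181 among the genes tested. Its TMM-scaled CPM were 270, 201 and 120 in replicates 1, 2 and 3, a 2.25-fold range.

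The edgeR adjusted p of Cp ranged from 0.0460 without replicate 1, where it was called, to 0.9999 without replicate 3, and was 0.187 without replicate 2. It was called in no other alternative. For Tfrc the edgeR adjusted p was 0.501, for Ftl1 0.502 and for Slc40a1 0.706. TMM-scaled CPM of Tfrc were 73.3, 123 and 130, those of Slc40a1 93.6, 129 and 163, and those of Ftl1 139, 238 and 148. Both Tfrc and Slc40a1 were lowest in replicate 1, as 39.8% of all genes tested were, and Cp was highest in it, as 38.1% were. The genes called leaned one way, with 132 of 166 highest and 24 lowest in replicate 1. That library also had the smallest share of counts on the ribosomal RNA repeat genes Gm26917, Gm42418 and CT010467.1, at 10.1% against 21.4% and 23.6% in replicates 2 and 3, and the part of this in the members' spread was not tested.

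The remaining members moved less. The highest library of Fth1 exceeded its lowest 1.28-fold in TMM-scaled CPM, that of Slc11a1 1.24-fold, that of Slc11a2 1.17-fold, and that of Ireb2 1.02-fold. For Ireb2, Ncoa4, Fth1, Slc11a1 and Slc11a2 the edgeR adjusted p was 0.9997. Among the macrophage markers Cd14, the lipopolysaccharide co-receptor, was called (edgeR adjusted p of 0.0194), at 6.81, 19.57 and 20.36 TPM, with replicate 1 low as for Tfrc and Slc40a1. By TPM, Cd14 was the 1 marker of 8 lowest in replicate 1. By TPM too, 4 of 8 were highest there, as Cp was: Csf1r, Mertk, Spi1 and Fcgr1. The last stood at 66.0, 53.3 and 37.7 TPM with an edgeR adjusted p of 0.647. The markers were not ordered in TMM-scaled CPM, the scale of the shares of all genes, where their order can differ. The part of the markers in the members' spread was not tested.

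**Figure D2:**
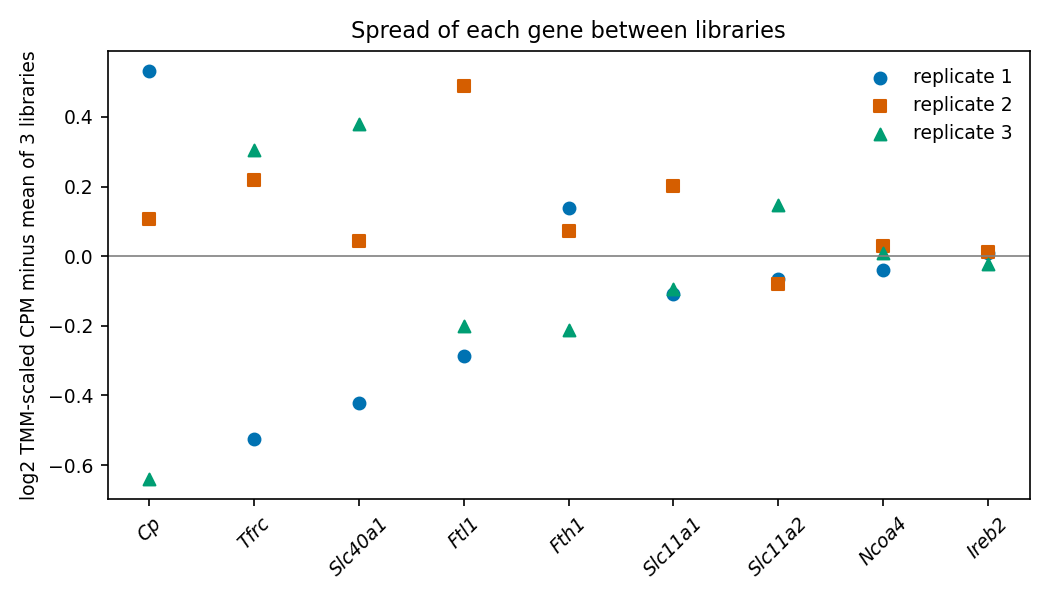
Deviation of each replicate from the mean of 3 libraries, in log2 TMM-scaled CPM, for the 9 detected iron genes, ordered by their range. Cp runs from high in replicate 1 to low in replicate 3, Tfrc and Slc40a1 are lowest in replicate 1, Ftl1 is highest in replicate 2, and Ncoa4 and Ireb2 lie close to 0 in all 3.

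The transcript tables divide each gene's level among annotated transcripts, here grouped as coding, retaining an intron, subject to nonsense-mediated decay, or processed without a coding sequence. On chromatin, RNA that is still being spliced can be assigned to retained-intron entries, and the assignment between overlapping transcripts is an estimate. Retained-intron transcripts held 85.6% ± 3.84 of the TPM of Fth1, 69.4% ± 4.88 of Cp, 65.1% ± 5.06 of Tfrc and 63.9% ± 3.66 of Slc40a1 (SD, n = 3). They held 49.3% ± 6.87 of Ftl1, 31.7% ± 0.584 of Ireb2, 30.1% ± 5.05 of Slc11a1, 24.8% ± 3.60 of Ncoa4 and 9.39% ± 0.713 of Slc11a2. The order thus ran from the heavy ferritin chain, mostly in such transcripts, to the endosomal transporter with few. The annotated number of such transcripts differed too: 4 for Fth1, 7 for Cp, and 1 each for Slc11a2 and Ireb2. The part of annotation in this order was not tested. Several of these shares depended on the measure. In the read-based tables the share was 33.8% for Tfrc, where coding transcripts held 66.2%, 39.1% for Slc40a1 and 11.5% for Ncoa4. By expected counts it was 40.3% for Tfrc and 2.01% for Slc11a2. For Fth1 it was 87.9% in the read-based tables and 90.9% by expected counts.

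The median of these 9 shares was 49.3% ± 6.87, beside 45.6% ± 0.711 over the 6342 detected protein-coding genes that have an annotated retained-intron transcript (SD, n = 3). As a share of expected counts, it was 37.8% for the members and 29.2% for all such genes. In the read-based tables it was 34.0% for the members and 44.3% for all such genes, so the side of the background on which the members lay depended on the tables. The median number of annotated retained-intron transcripts was 2 for members, Hamp with none included. It was also 2 for the detected protein-coding genes that have any, those with none being left out.

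**Figure D3:**
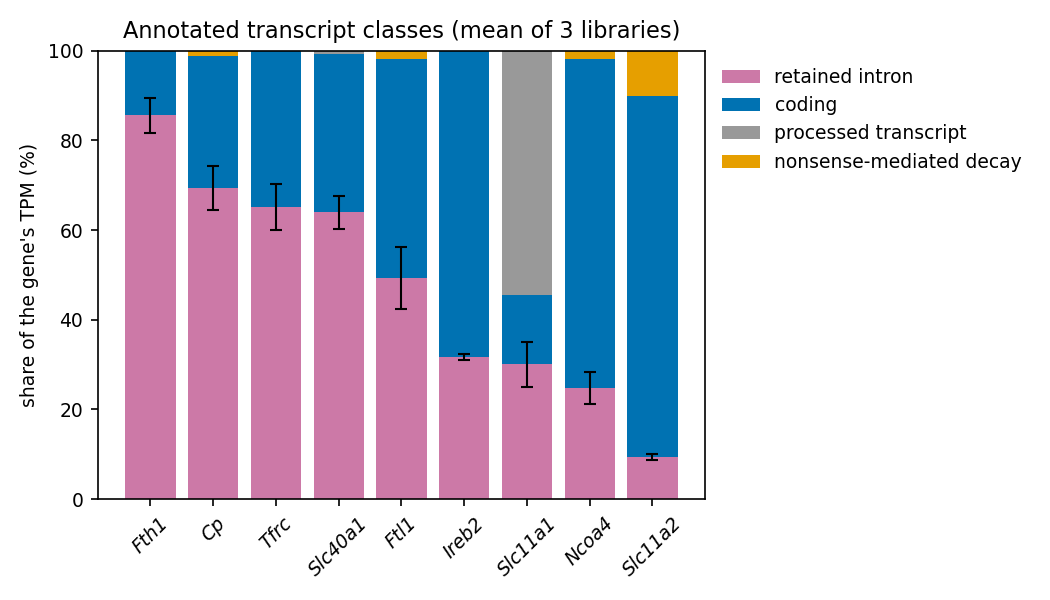
Share of each gene's TPM in 4 classes of annotated transcript, mean of 3 libraries, with SD bars on the retained-intron share. Retained-intron transcripts take 85.6% in Fth1 and 9.39% in Slc11a2, and processed transcripts take 54.5% in Slc11a1.

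By TPM in the set that goes with the gene tables, Slc11a1 differed from the other detected members in its largest class. Transcripts without a coding sequence held 54.5% ± 5.70 of its TPM (SD, n = 3) and coding transcripts 15.4% ± 2.15. By expected counts retained-intron transcripts held 41.8% ± 6.73, coding ones 39.3% ± 5.26 and processed ones 18.9% ± 4.23, so the class order depended on scaling by length. Slc11a1-206, a processed transcript, led in all 3 libraries with 39.0% ± 3.34 of the TPM. In the read-based tables processed transcripts were also the largest class of Slc40a1 in replicates 2 and 3, at 48.6% and 46.7%. In replicate 1 they held 18.3% of Slc40a1.

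The ferritin chains differed mainly in retained-intron transcripts. Coding transcripts of Fth1 stood at 114, 148 and 61.9 TPM in replicates 1, 2 and 3, against 113, 248 and 116 TPM for Ftl1. Retained-intron transcripts stood at 666, 666 and 527 TPM for Fth1, against 117, 191 and 148 TPM for Ftl1. The higher total of Fth1 was therefore in its retained-intron transcripts, while in coding transcripts Ftl1 was higher in replicates 2 and 3 and the chains were within 1 TPM in replicate 1. In the read-based tables, coding transcripts were at 91.3, 69.5 and 33.9 TPM for Fth1, against 46.3, 110.35 and 50.8 TPM for Ftl1, so replicate 1 had Fth1 higher and the others Ftl1. The leading transcript was Fth1-202, a retained-intron form with 33.5% ± 3.97 of the gene's TPM, and Ftl1-201, a coding form with 49.0% ± 5.75 (SD, n = 3). In the read-based tables Fth1-202 led too, while Ftl1-206, a retained-intron form, led for Ftl1 at a mean of 117 TPM against 69.1 TPM for Ftl1-201.

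**Figure D4:**
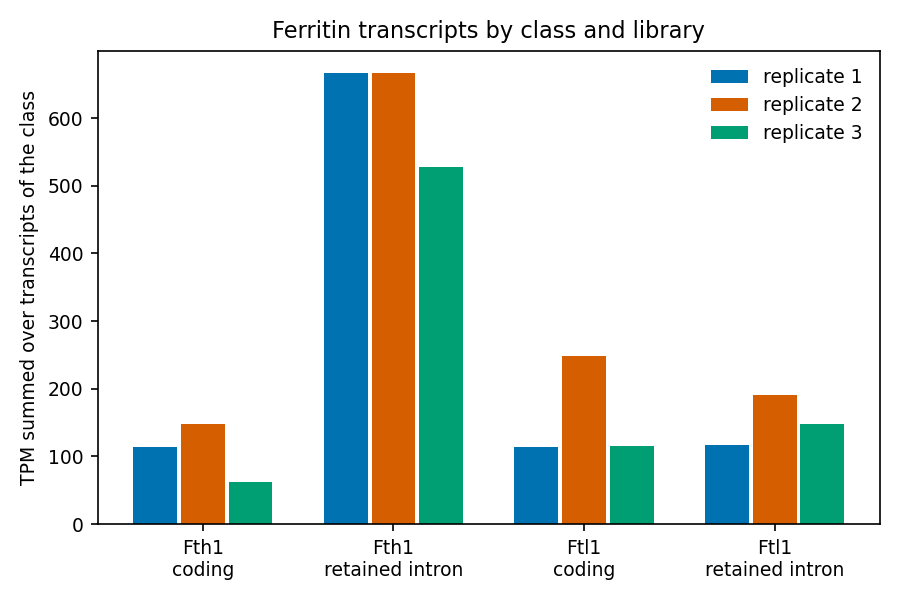
TPM summed over coding and over retained-intron transcripts of Fth1 and Ftl1, with 1 bar per replicate. Retained-intron transcripts of Fth1 reach 527 to 666 TPM and exceed the other 3 classes in every library.

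The printed elements lie in transcripts that held varying parts of each gene. Transcripts with the Fth1 element, 5 of 9, held 43.3% ± 3.26 of its TPM and 64.7% ± 3.53 of its expected counts (SD, n = 3), and one of them, Fth1-208, retains an intron and was at 209 TPM. Transcripts with the Ftl1 element, 2 of 6, held 50.7% ± 6.87 of TPM. For Slc40a1, 3 of 8 transcripts held the element and 99.2% ± 0.969 of TPM in the gene tables' set, but 62.1% ± 16.9 in the read-based tables, where Slc40a1-207, a short processed transcript without it, was at 5.28, 28.5 and 27.9 TPM.

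For Tfrc, the 4 printed elements lie together in 2 of 7 transcripts, which held 37.2% ± 2.45 of TPM, 79.6% ± 6.58 of expected counts and 18.6% ± 1.96 of read-based TPM (SD, n = 3). One of these, the full-length coding Tfrc-201, stood at 5.45, 17.6 and 17.8 TPM in replicates 1, 2 and 3, and the other, Tfrc-204, which retains an intron, at 9.56, 10.9 and 10.2 TPM. The low value of Tfrc in replicate 1 was thus larger in the coding than in the retained-intron transcript with the elements. In Slc11a2 the near match lies in 1 of 8 transcripts, Slc11a2-205, which led the gene with 36.1% ± 2.58 of TPM and 67.3% ± 1.18 of expected counts. In the read-based tables it held 21.6% ± 2.38 and, at a mean of 30.6 TPM, stood just below the short Slc11a2-204 at 31.7 TPM.

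Of the 9 detected members, 0 differed past 2-fold the same way in all 3 libraries between the deposited gene tables and the read-based tables, against 11.1% of detected protein-coding genes. The ratio of gene-table to read-based TPM was 1.42 ± 0.223 for Fth1, the only member above 1 (SD, n = 3), and averaged below 1 for the other detected members, as the median detected gene did at 0.773. Slc11a2 at 0.584 ± 0.0788 and Ncoa4 at 0.578 ± 0.101 were lower past 1.5-fold in all 3 libraries, as 25.7% of detected protein-coding genes were.

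The wider iron genes were examined in 5 lists of 56 measured genes. Of the 36 tested, edgeR called none as varying between libraries, against 1.12% of all genes tested, and 2 were at an unadjusted p below 0.05, Trf and Hmox1, where the share over all genes was 6.08%. Over all protein-coding genes 45.6% were detected, the share beside which the count of each list stands. Uptake genes were mostly low in the gene tables: 5 of 16 were detected and 6 had no counts. Their median log2(TPM + 0.1) was -2.32 ± 0.24 (SD, n = 3; -0.43 over all protein-coding genes). The highest were Lrp1, an endocytic receptor that takes up haem bound to hemopexin, at 265 ± 19.7 TPM, Mcoln1, a lysosomal channel that passes iron, at 78.5 ± 11.9, and the metal transporter Slc39a14 at 7.03 ± 0.670. Transferrin itself, Trf, stood at 2.22, 6.55 and 2.86 TPM, and the least of the list were at 0, among them the second transferrin receptor Tfr2, which was at 7.63 TPM in the read-based tables. Some other uptake genes that were not detected also averaged above 1 TPM in the read-based tables, so the count of detected genes depends on the tables.

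Of the haem genes, 9 of 12 were detected, with a median of 4.12 ± 0.21. Flvcr1, a haem exporter first described as a virus receptor, stood at 39.2 ± 7.87 TPM, the biliverdin reductase gene Blvrb at 36.1 ± 4.32 and Alas1, the first enzyme of haem synthesis in most tissues, at 24.8 ± 4.33 (SD, n = 3). Hmox1, which opens the haem ring and frees its iron, stood at 13.8, 26.9 and 12.2 TPM, with replicate 2 high as for Ftl1 and Trf. Haptoglobin, Hp, was the lowest at 0.283 ± 0.133.

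Sensing and chaperone genes were detected in 7 of 8 cases, with a median of 4.47 ± 0.05. The iron chaperone gene Pcbp2 stood at 132 ± 8.93 TPM, Atg7, needed for autophagy, at 58.7 ± 7.49, and Fbxl5, the ubiquitin ligase subunit that senses iron and removes Ireb2 protein, at 38.4 ± 3.41 (SD, n = 3). Ftmt, the mitochondrial ferritin gene, had no counts. Of 10 mitochondrial iron genes 8 were detected, with a median of 2.78 ± 0.13. These were led by the mitoferrin genes Slc25a37 at 51.8 ± 3.22 TPM and Slc25a28 at 29.5 ± 4.25 and the cysteine desulfurase gene Nfs1 at 11.9 ± 1.09.

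Genes of export and hepcidin regulation were low too, with 2 of 10 measured genes detected and a median of -2.13 ± 0.29. These were Mon1a, a vesicle traffic gene linked to ferroportin at the macrophage surface, at 5.96 ± 1.06 TPM, and Hfe at 5.50 ± 1.42 (SD, n = 3), followed by Neo1 at 0.983 ± 0.456. Heph, the membrane ferroxidase related to Cp, had 0, 0 and 1 counts. Its relative Hephl1, Hamp2 and Hfe2 had none. Of the 3 multicopper ferroxidase genes Cp, Heph and Hephl1, only Cp was therefore detected.

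**Figure D5:**
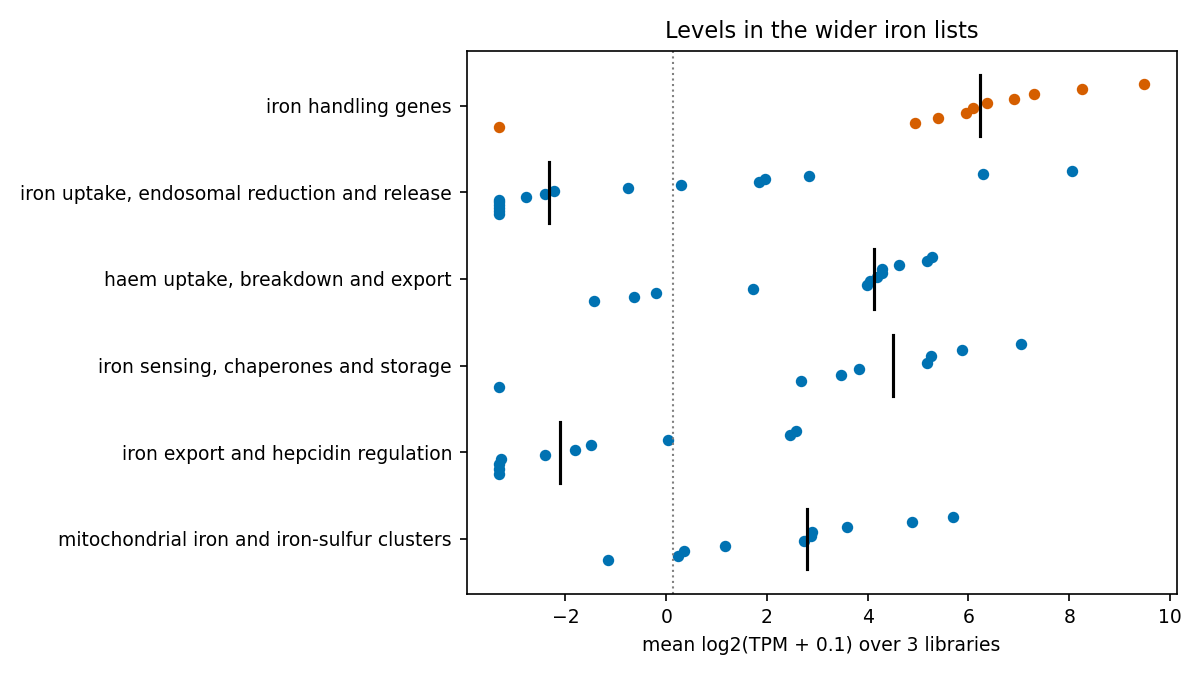
Mean level of each gene on a log2(TPM + 0.1) axis, over 3 libraries, for the 10 iron handling genes and 5 wider lists, with a black bar at each list's median and a dotted line at 1 TPM. Of the 10 iron handling genes 9 lie right of the line, as do 9 of 12 haem genes, and most uptake and export genes lie left of it.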

How the data were processed

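Per the file headers and the notes beside the files, the authors deposited gene and transcript tables of expected counts and TPM from a transcriptome alignment (mm10, GENCODE M21) and a further set, called read-based here, of estimated counts and TPM per transcript, taken from the reads. The columns are those RSEM and kallisto write. Not given in the sources used here are the aligner, the quantifiers, their versions and the handling of strand. Whole numbers, rounded from the expected counts, entered the count models. tRNA and spike-in entries held 1.39%, 0.288% and 0.283% of counts in replicates 1, 2 and 3 and were left out of library sizes and tests.

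The 10 members, the 5 wider iron lists, the cell type markers and the tests were chosen with earlier results of these data known. Named beyond the members were up to 3 highest and the lowest gene of each list, with Aco1, Fbxl5, Heph, Hmox1, Trf, Hamp2 and the ferritin and hepcidin copies. The values of 2 genes of these lists and markers are not reported here. Neo1, Tfr2, Hps3, Gm10252, Gm5475, Hephl1 and the single cell type markers were named after their values were seen. A gene was detected at 1 TPM or more in all 3 libraries. Within-library differences of log2(TPM + 0.1) had exact two-sided sign-flip tests. Variation was tested in edgeR 4.0.16 (R 4.3.3) with filterByExpr, TMM and the Benjamini-Hochberg adjustment at 0.05, and DESeq2 1.42.0 served for alternatives. The shared donor identifier leaves it unstated how separate the cultures were, so p-values reflect the spread of these 3 libraries, which may be technical. Limits set by 3 counts are for counting error alone, because duplicate reads of a molecule cannot be told apart. On simulated counts with 1 library changed in genes picked at random, the edgeR test recovered 182 of 198 genes at 4-fold (91.9%) and 40 of 192 at 2-fold (20.8%), with 2 false calls each. These counts were drawn with the trended dispersion that the test assumes. The false calls therefore do not measure the error rate in the real libraries, and the recovery is not specific to the members. Transcript sequences came from GENCODE M21. Other work used Python 3.11.15, numpy 2.4.6 and pandas 2.3.3. The alternatives were the read-based tables, another threshold, pseudocount, scaling and filter, DESeq2, and leaving out each replicate.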

Additional observations from a re-analysis of the deposited data

How the results depend on the processing

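In CPM, without scaling by length, Slc11a1 minus Slc11a2 turned to -0.52 and Tfrc minus Slc40a1 to -0.25 on the log2 scale. All 3 differences kept their sign with the read-based tables (0.60, 0.41 and 0.76 for Fth1 minus Ftl1, Slc11a1 minus Slc11a2 and Tfrc minus Slc40a1), a pseudocount of 1 and without each replicate. Genes called as varying between libraries numbered 166, against 273 with the read-based tables, which hold more tested genes, 61 as DESeq2 dispersion outliers, 166 with DESeq2 size factors, 221 without the filter, and 56 to 76 without 1 replicate, where fewer samples enter. Cp was the one member called in any of these, without replicate 1. The count of detected members was 9 under every alternative run. The median retained-intron share of members moved to 37.8% by expected counts and 34.0% in the read-based tables; the cause was not tested. Past 1.5-fold, 2 members differed between tables in place of 0 past 2-fold. Levels moved by more than 1 SD for 8 of 10 members in the read-based tables and for 9 of 10 when TPM was rescaled over protein-coding genes. Leaving out 1 of 3 libraries cannot move a mean by 1 SD, so it says nothing on levels. Pairing of replicates between conditions does not arise, since all libraries belong to 1 group. Depth limits Hamp, for which counts of 0 allow up to 0.222 CPM. Changes near 2-fold in 1 library were mostly missed on simulated counts of genes picked at random, not of the members as such.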
